A study of Mus musculus with 5 samples.

Results

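The miR-99/100 and miR-125 families are 2 groups of microRNAs (miRNAs, short RNAs that guide repression of messenger RNAs) that sit beside let-7 genes in the mouse genome. Members were taken by name as the strands cut from the miR-99a, miR-99b, miR-100, miR-125a and miR-125b hairpins, 10 of the 1966 miRNA rows measured. The guides are mmu-miR-99a-5p, mmu-miR-99b-5p, mmu-miR-100-5p, mmu-miR-125a-5p and mmu-miR-125b-5p, and the opposite strands are mmu-miR-99a-3p, mmu-miR-99b-3p, mmu-miR-125a-3p, mmu-miR-125b-1-3p and mmu-miR-125b-2-3p, all written below without the prefix for mouse. Of these 10, 9 had counts in all 5 libraries, and miR-99a-3p had 0 in each. The 3p strand of miR-100, which is not among the 10, also has a row and also had 0 in each library.

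The samples were extracellular vesicles, membrane particles that cells release and that carry small RNA, from cultured mesenchymal stem cells of C57BL/6-GFP transgenic mice. The study compared unmodified vesicles, which were not freeze-dried (n = 2 libraries), with freeze-dried ones (n = 3). Both groups came from cells held in a reduced-serum medium for 48 h, with small vesicles pelleted at 100000 g for 110 min. Freeze-dried vesicles had been put in buffer with 25 mM trehalose, frozen at -80 °C, dried overnight and hydrated again for 1 h. Per the labels, vesicle pellets were kept in buffers with or without trehalose at several temperatures, and which of these the unmodified libraries had is not given. Whether the replicates came from separate cultures is not given in the labels. All p-values here therefore rest on the spread between these libraries, which may be technical.

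Total counts were 131507 to 2914305 per library. Unmodified replicate 1 and freeze-dried replicates 1 and 2 had at least 500000 counts and are called deep, and unmodified replicate 2 and freeze-dried replicate 3 are called shallow. Of 10 miRNAs chosen as mesenchymal or fibroblast markers, 10 had counts in all 5 libraries. They took 19.5% and 21.2% of the counts in the unmodified libraries and 14.7% to 15.8% in the freeze-dried ones. The 5 leukocyte markers took 0.0567% to 0.138%, with miR-142a-3p and miR-142a-5p at 0. The 7 epithelial ones took 0.0707% and 0.0736% in unmodified libraries and 0.0203% to 0.0421% in freeze-dried ones. Over the 5 libraries, 3 neural markers took 0.187% to 0.407% and 4 red cell markers 0.0758% to 0.170%. The neural share came mostly from miR-129-5p, the only 1 of the 3 with counts in all libraries. The 2 endothelial markers took 0.00623% to 0.0403%, and the 1 hepatocyte marker 0.00912% to 0.0296%.

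A miRNA is cut from a hairpin in a longer primary transcript, first in the nucleus and then in the cytoplasm, which leaves a 5p and a 3p strand. One strand, the guide, is usually kept and loaded into a silencing complex, while the other is mostly degraded. Targets are found mainly through the seed, bases 2 to 8 counted from the 5′ end of the guide. miR-125 is the vertebrate relative of lin-4, the founding miRNA of nematode developmental timing, and is known for roles in haematopoiesis, the p53 pathway and differentiation. miR-99 and miR-100 are known for repression of mTOR and IGF1R, and they belong to the same sequence superfamily as the Hox-cluster miRNAs miR-10a and miR-10b. let-7, the family whose genes lie between them, is associated with differentiation.

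The guide sequences show which members could share targets and which could share reads. They are the mature sequences of RefSeq (GRCm38.p6), in which all 10 members were found, printed 5′ to 3′ with the seed in capitals.
miR-99a-5p: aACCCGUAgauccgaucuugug
miR-100-5p: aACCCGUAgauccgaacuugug
miR-99b-5p: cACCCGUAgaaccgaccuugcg
miR-125a-5p: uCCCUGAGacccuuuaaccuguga
miR-125b-5p: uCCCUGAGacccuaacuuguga
miR-351-5p: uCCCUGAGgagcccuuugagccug
The 3 guides of miR-99a, miR-99b and miR-100 had the seed ACCCGUA, which was found in no other of the 1675 rows (of 1966) that had a mature sequence in RefSeq. The other rows were not searched. The guides of miR-125a and miR-125b had the seed CCCUGAG, which they shared with miR-351-5p, from a cluster on chromosome X, and with 2 rows at 0 counts, miR-6367 and miR-6394. miR-99a-5p and miR-100-5p differed by 1 base, U16A (miR-99a-5p first, positions from the 5′ end), so reads with an error or an allowed mismatch at that base could have been counted for either. miR-99a-5p and miR-99b-5p differed by 4 bases, A1C, U11A, U16C and U21C. miR-125a-5p and miR-125b-5p were identical over their first 13 bases and then diverged, with lengths of 24 and 22 nt. The members ranged from 21 to 24 nt, so that counts per miRNA are close to counts per length.

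The 3p strands of the same hairpins had other seeds and are shown because they tell apart hairpins that the guides do not.
miR-125b-1-3p: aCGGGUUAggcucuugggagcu
miR-125b-2-3p: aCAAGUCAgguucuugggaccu
miR-125a-3p: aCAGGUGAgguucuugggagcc
miR-99b-3p: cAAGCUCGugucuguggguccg
miR-99a-3p: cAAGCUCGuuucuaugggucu
miR-100-3p: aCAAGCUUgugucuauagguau
miR-125b-5p is cut from 2 hairpins with the same guide sequence, and the table has a single row for it. Its 3p strands differ between these hairpins and have a row each. Among the 1675 rows with a sequence, no member other than miR-99a-5p and miR-100-5p had another row within 2 mismatches. How the authors' counting placed reads with several matches is not given in the sources used here. The rows of let-7a-1-3p and let-7c-2-3p, which have identical mature sequences, held 36 and 80 counts in unmodified replicate 1 and 556 and 923 in freeze-dried replicate 1, so these rows did not hold equal copies of shared reads.

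The members come from 3 clusters, each with a miR-99/100 hairpin, a let-7 hairpin and a miR-125 hairpin in that order on the plus strand. In GENCODE M21 (GRCm38), Mir99a lies on chromosome 16 at 77598936 to 77599000 and Mirlet7c-1 at 77599657 to 77599750. Mir125b-2 follows at 77646273 to 77646343, and all 3 lie in an intron of Mir99ahg. On chromosome 9, Mir100 lies at 41531425 to 41531504, Mirlet7a-2 at 41536716 to 41536811 and Mir125b-1 at 41581926 to 41582002. These 3 lie in introns of 3110039I08Rik and Gm49317, and Mir125b-1 also overlaps an exon of Gm28119. On chromosome 17, Mir99b lies at 17830188 to 17830257 and Mirlet7e at 17830352 to 17830444, in an intron of Spaca6. Mir125a, at 17830812 to 17830879, overlaps a Spaca6 exon. The chromosome 17 cluster is the most compact, with a span of 692 bases against 47408 and 50578 for the others, and each of its guides has this hairpin as its only source here. let-7c-5p, let-7a-5p and miR-125b-5p each have another hairpin elsewhere in the genome.

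**Figure D1:**
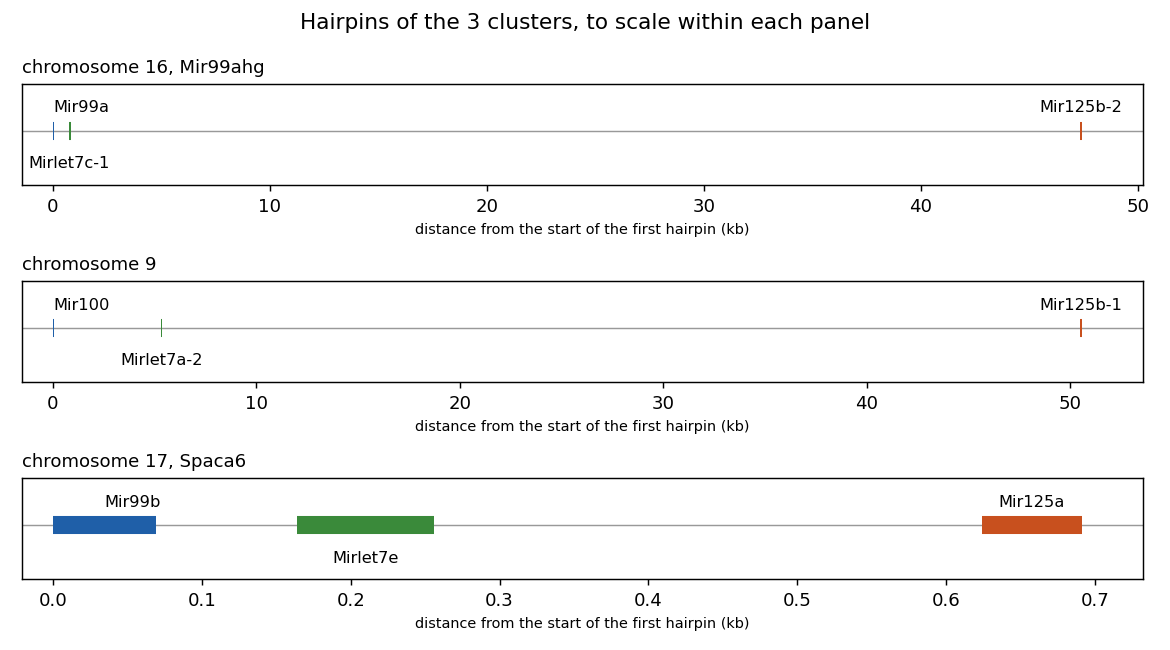
Positions of the hairpins of the 3 clusters, as distance in kb from the start of the first hairpin, to scale within each panel (blue: miR-99/100, green: let-7, orange: miR-125). The chromosome 17 hairpins span 692 bases, while on chromosomes 16 and 9 the miR-125b hairpin lies 46522 and 45114 bases beyond the let-7 hairpin.

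Hairpins with the mature strands in capitals show where the counted strands lie. They are given for Mir125a, whose strands both had counts, for Mir125b-1, which has the most abundant 3p strand of the members, and for Mir99a, whose 3p strand had none.
Mir125a: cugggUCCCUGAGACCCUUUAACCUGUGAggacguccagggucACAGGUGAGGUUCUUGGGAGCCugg
Mir125b-1: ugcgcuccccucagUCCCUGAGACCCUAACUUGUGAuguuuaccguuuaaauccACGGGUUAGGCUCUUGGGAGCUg
Mir99a: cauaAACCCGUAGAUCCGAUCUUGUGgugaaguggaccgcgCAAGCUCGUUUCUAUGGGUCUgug

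The 10 members together took 11.2% of the counts in unmodified replicate 1 (exact 95% binomial interval 11.2 to 11.3) and 7.58% in replicate 2 (interval 7.44 to 7.72). In the freeze-dried replicates they took 8.81% (interval 8.77 to 8.84), 10.2% (interval 10.1 to 10.2) and 7.01% (interval 6.89 to 7.12). The lowest value of each group was in its shallow library, and the groups overlapped. Counting error is all that these intervals cover, because no use of molecular identifiers is stated and reads may share a molecule. The 3p strands made up a small part, 0.405% to 0.628% of the counts.

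miR-125b-5p, the guide from 2 hairpins, was the most abundant member. On the scale of TMM-normalised CPM (counts scaled to a common library size, with a factor for library composition) it stood at 44815 and 31115 in the unmodified replicates 1 and 2 and at 43014, 47063 and 32734 in the freeze-dried replicates 1 to 3. The 2 shallow libraries were the lowest and the groups overlapped. Its log2 fold change, freeze-dried against not, was 0.11 (SE 0.28, 95% interval -0.52 to 0.74), so it was not called by edgeR's quasi-likelihood test (adjusted p = 0.98 over the 327 miRNAs tested). The sign depended on single libraries and on the scaling. It was -0.17 without unmodified replicate 2, -0.01 without freeze-dried replicate 2 and -0.02 when only the total count was used.

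miR-125a-5p, which shares the miR-125 seed, stood at 16877 and 11023 CPM in unmodified vesicles and at 19592, 22331 and 20458 CPM in freeze-dried ones. Every freeze-dried library was above both unmodified ones on this scale. As a share of the raw total the groups overlapped, with 1.89% (exact 95% binomial interval 1.86 to 1.91) in unmodified replicate 1 against 1.85% (interval 1.83 to 1.86) in freeze-dried replicate 1. The log2 fold change was 0.58 (SE 0.28, interval -0.06 to 1.21), which missed the threshold (unadjusted p = 0.072, adjusted p = 0.98 by edgeR). It was 0.26 without unmodified replicate 2, the library with the lowest value, and 0.98 without replicate 1. Among the 2 miR-125 guides, miR-125a-5p made up 27.4% and 26.2% of the counts in unmodified vesicles and 31.3%, 32.2% and 38.5% in freeze-dried ones, without overlap. No background was computed for this share, and lack of overlap was common for the ratios that have one below.

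miR-99b-5p was the most abundant miR-99/100 guide. It stood at 17539 and 19578 CPM in unmodified vesicles and at 15023, 13809 and 12908 CPM in freeze-dried ones. All 3 freeze-dried libraries were below both others, on this scale and as a share of the raw total. The log2 fold change was -0.42 (SE 0.25, interval -0.98 to 0.15) and was not called (unadjusted p = 0.13, adjusted p = 0.98 by edgeR). It stayed between -0.54 and -0.30 over the 16 alternatives run.

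miR-99a-5p stood at 6210 and 5236 CPM in unmodified vesicles and at 4854, 3975 and 4043 CPM in freeze-dried ones. The groups again did not overlap, with the freeze-dried libraries lower on both scales. Freeze-dried against unmodified, the log2 fold change came to -0.42 (SE 0.29, interval -1.06 to 0.22), also not called (unadjusted p = 0.18, adjusted p = 0.98 by edgeR). Without unmodified replicate 1 it was -0.22.

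miR-100-5p, which differs from miR-99a-5p by 1 base, varied more between libraries. It stood at 9496 and 3649 CPM in unmodified vesicles and at 6599, 5231 and 2107 CPM in freeze-dried ones. The 2 shallow libraries were the lowest of the 5, and the groups overlapped. The log2 fold change was -0.50 (SE 0.56, interval -1.83 to 0.83). It turned to 0.41 without unmodified replicate 1, which leaves a shallow library as the only unmodified one. Leaving out freeze-dried replicate 1 or 3 gave -0.83 and -0.13 in that order, and leaving out unmodified replicate 2 gave -1.06. Within the miR-99/100 guides, miR-100-5p made up 28.6%, 24.9% and 22.7% of the counts in the deep libraries and 12.8% and 11.1% in the shallow ones, while miR-99a-5p stayed between 17.3% and 21.2%. Library depth thus moved with the level of miR-100-5p. With depth class as a term in the fit the log2 fold change was -0.73 (SE 0.24), and miR-100-5p was still not called. In the deep libraries alone it was -0.70, and after thinning all libraries to the smallest total it was -0.52.

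Levels also split by depth for miR-351-5p and miR-10a-5p, which are related by sequence. The share of all tested miRNAs with such a split was not computed, and a link to sequence was not tested. miR-351-5p, with the miR-125 seed, had 8184 to 9292 CPM in the deep libraries and 3018 and 3664 CPM in the shallow ones, with a log2 fold change of 0.01 (SE 0.55). miR-10a-5p had 1111 to 3012 CPM in the deep libraries against 123 and 233 CPM in the shallow ones. miR-10b-5p did not share this order, with 13.6 to 175 CPM in the deep libraries and 245 and 330 CPM in the shallow ones.

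Among the 3p strands, miR-125b-1-3p was the most abundant. It stood at 3550 and 2775 CPM in unmodified vesicles and at 2927, 3186 and 2710 CPM in freeze-dried ones, with overlap. The fitted log2 fold change was -0.10 (SE 0.31, interval -0.80 to 0.59), or 0.15 without unmodified replicate 1.

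miR-125b-2-3p, from the other miR-125b hairpin, was far lower. It had 127 and 9 counts in the unmodified libraries and 20, 212 and 16 after freeze-drying, which gives 7.28 CPM in freeze-dried replicate 1 and at least 69.0 CPM in each of the other 4. Freeze-dried replicate 1, the deepest library, stood apart with the lowest level, while its miR-125b-1-3p was within the range of the others. The log2 fold change of miR-125b-2-3p was -0.70 with an SE of 1.79. It was -0.16 without that library, -0.13 without unmodified replicate 1 and -1.07 without freeze-dried replicate 3. Of the counts of both miR-125b 3p strands, miR-125b-1-3p made up 96.6% to 99.8% in the 5 libraries.

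miR-125a-3p stood at 1088 and 1962 CPM in unmodified vesicles and at 686, 938 and 1156 CPM in freeze-dried ones. The highest value was in unmodified replicate 2, the library in which miR-125a-5p was lowest, and the groups overlapped. As a share of the raw total the freeze-dried libraries were all lower, at 0.0647%, 0.0976% and 0.105% against 0.122% and 0.195%, but no background was computed for raw shares. The log2 fold change was -0.72 (SE 0.45, interval -1.73 to 0.29), not called (unadjusted p = 0.14, adjusted p = 0.98 by edgeR), and -0.28 without unmodified replicate 2.

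miR-99b-3p stood at 857 and 1012 CPM in unmodified vesicles and at 679, 1092 and 592 CPM in freeze-dried ones. Freeze-dried replicate 2 was the highest and the other freeze-dried libraries the lowest, so that the groups overlapped. A log2 fold change of -0.24 was fitted (SE 0.50, interval -1.36 to 0.87), and 0.03 in the deep libraries alone. Leaving out freeze-dried replicate 1, 2 or 3 gave -0.13, -0.56 and -0.013 in that order, and leaving out unmodified replicate 2 gave -0.16.

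miR-99a-3p had 0 counts in each library, which allows a level of up to 1.03 CPM of the raw total in the deepest library and 22.8 CPM in the shallowest (3 counts). Its guide miR-99a-5p had 13340 counts in the deepest library, at least 4447 times what 0 counts allow for the 3p strand there. Of the partner 3p strands, let-7c-1-3p beside miR-99a and let-7a-2-3p beside miR-100 also had 0 counts in each library, as did miR-100-3p. let-7e-3p of the chromosome 17 cluster had 69 and 4 counts in unmodified vesicles and 275, 271 and 2 in freeze-dried ones. Such zeros were common: of 34 abundant 5p rows (mean of at least 1000 CPM) with a 3p row of the same name, 11 had that 3p row at 0 in all libraries, or 32.4%.

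**Figure D2:**
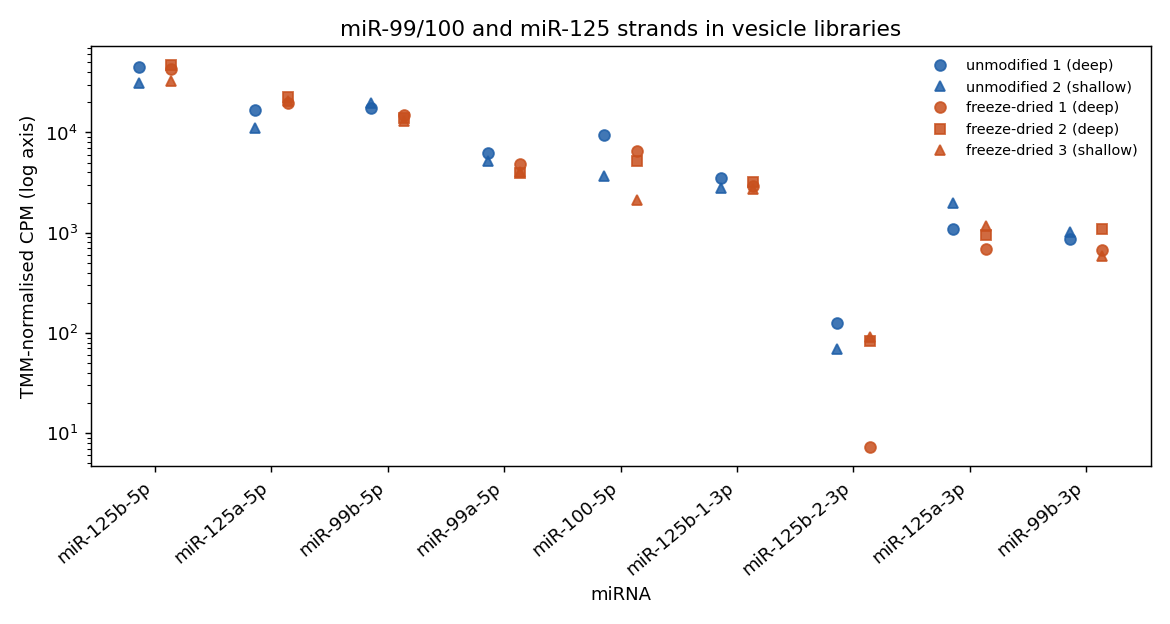
TMM-normalised CPM (log axis) of the 9 members with counts, 1 point per library, in blue for unmodified and orange for freeze-dried vesicles. miR-99b-5p and miR-99a-5p are lower in the 3 freeze-dried libraries than in both others, miR-125a-5p is higher, and freeze-dried replicate 1 stands apart for miR-125b-2-3p at 7.28 CPM.

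Members were ordered by mean log2 level over the 5 libraries, and each fold is a geometric mean of within-library ratios. miR-125b-5p was 2.23 times as abundant as miR-125a-5p (higher in 5 of 5 libraries). miR-125a-5p and miR-99b-5p, next in order, did not differ beyond their spread (miR-125a-5p higher in 3 of 5). miR-99b-5p exceeded miR-99a-5p by 3.25 times, in 5 of 5 libraries. Neither miR-99a-5p and miR-100-5p nor miR-100-5p and miR-125b-1-3p, the next pairs in order, differed beyond the spread. Of the former pair, miR-99a-5p was higher in 2 of 5 libraries, the shallow ones, and miR-100-5p in the deep ones. miR-125b-1-3p exceeded miR-125a-3p by 2.75 times in 5 of 5 libraries. miR-125a-3p and miR-99b-3p did not differ beyond the spread, and miR-99b-3p exceeded miR-125b-2-3p by 15.2 times in 5 of 5.

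Across the whole table, edgeR called 0 of 327 miRNAs higher in freeze-dried vesicles and 0 lower, a background of 0% in each direction, and 0 of the 9 tested members were among those called. At an unadjusted p under 0.05 edgeR had 9 of the 327 (2.75%) and none of the members, DESeq2 had 16 and limma-voom 16, and neither tool called any. Log2 fold changes were above 0 for 2 of the 9 tested members and below 0 for 7, and their median was -0.42. For all tested miRNAs they were above 0 for 167 and below 0 for 160, and the median was 0.02. Groups did not overlap for 3 of the 9 members, 1 with freeze-dried libraries higher and 2 with them lower. For all tested miRNAs the groups did not overlap in 17.4% of cases, 8.87% higher and 8.56% lower, and in 24.7% of the 89 miRNAs whose mean reached 1000 CPM. With so few members and a background of this size, the count is not a result about these families.

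**Figure D3:**
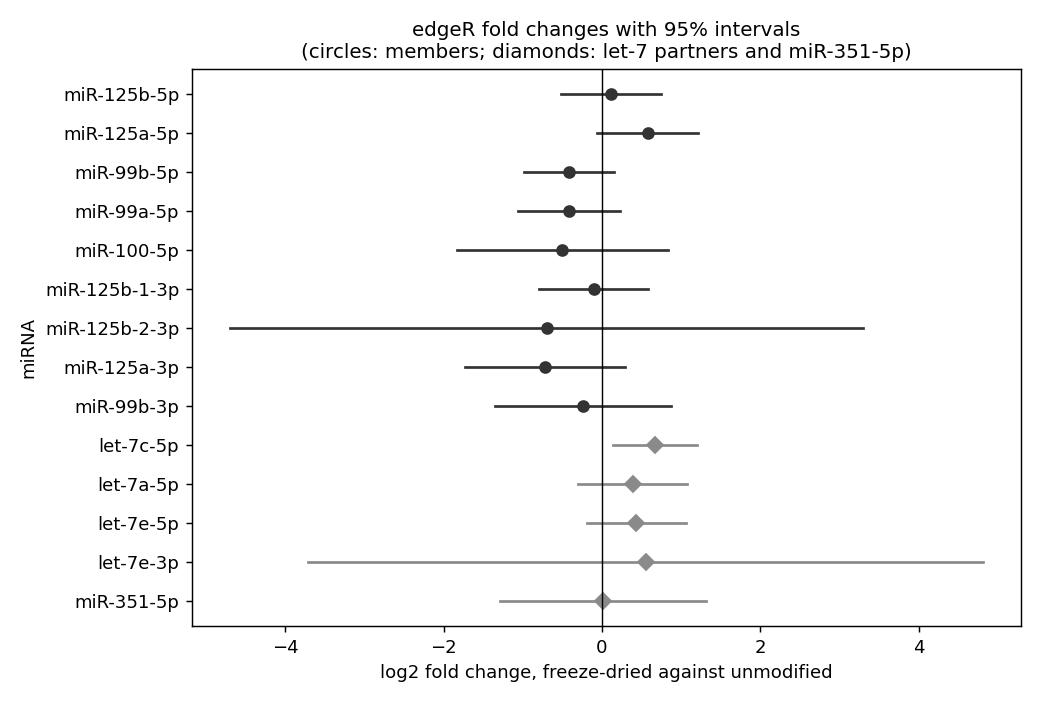
Log2 fold changes, freeze-dried against unmodified vesicles, from edgeR with 95% intervals, for the 9 tested members (circles), 4 let-7 partner strands and miR-351-5p (diamonds). Each member's interval includes 0, and that of miR-125b-2-3p, -4.70 to 3.30, is the widest of the members.

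Summed by family, the miR-99/100 guides took 3.71% of the counts in unmodified replicate 1 (exact 95% binomial interval 3.68 to 3.75) and 2.82% in replicate 2 (interval 2.73 to 2.91). In the freeze-dried replicates they took 2.50% (interval 2.48 to 2.51), 2.40% (interval 2.38 to 2.41) and 1.74% (interval 1.68 to 1.80). The means were 3.27% ± 0.63 (SD, n = 2) and 2.21% ± 0.41 (SD, n = 3), with every freeze-dried library lower. The difference of -1.06 percentage points was -0.61 without unmodified replicate 1 and -0.80 with TMM-scaled totals. With let-7 counts taken out of the total it was -1.02. That is a share of a smaller total, so its size cannot be set beside -1.06. Overlap of the groups on that total was not computed. The summed share of the mesenchymal marker list was also lower in every freeze-dried library, at 14.7% to 15.8% against 19.5% and 21.2%, although 4 of its 10 miRNAs had log2 fold changes above 0. The summed share of the epithelial list was lower as well, at 0.0203% to 0.0421% against 0.0707% and 0.0736%, with 4 of its 7 miRNAs counted and miR-200c-3p, miR-141-3p and miR-429-3p at 0. The part of either list in the result was not tested.

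The miR-125 guides took 6.89% and 4.18% of the counts in unmodified vesicles (intervals 6.84 to 6.94 and 4.07 to 4.29). They took 5.90%, 7.22% and 4.85% in freeze-dried ones (intervals 5.88 to 5.93, 7.19 to 7.26 and 4.76 to 4.95). The means of 5.54% ± 1.92 (SD, n = 2) and 5.99% ± 1.19 (SD, n = 3) differed by 0.46 percentage points, less than the spread. The sign changed to -0.90 without unmodified replicate 2, to -0.16 without freeze-dried replicate 2 and to -0.33 in the deep libraries alone. Without unmodified replicate 1 the difference was 1.81, and with TMM-scaled totals it was 0.98. With let-7 counts taken out it was 1.84, a share of a smaller total.

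Of the 6 strands of the let-7 hairpins between the members, 4 were tested, and with TMM scaling all 4 had log2 fold changes above 0, with 0 called. let-7c-5p had 0.67 (SE 0.24, unadjusted p = 0.018, adjusted p = 0.98 by edgeR), let-7e-5p 0.44 (SE 0.28), let-7a-5p 0.39 (SE 0.31) and let-7e-3p 0.55 (SE 1.90). let-7e-5p stood at 10991 and 11644 CPM in unmodified vesicles and at 17744, 12484 and 15704 CPM in freeze-dried ones. It was higher in each freeze-dried library, while miR-99b-5p, whose hairpin lies 94 bases upstream, was lower in each.

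Ratios of raw counts within a library do not depend on the scaling between libraries. A total of 7 were tested, and their exact two-sided permutation p-values cannot go below 0.2 with 2 libraries against 3. Shares among guides and the guide over summed 3p ratio of miR-125b were not tested and lie outside the adjustment. For let-7e-5p over miR-99b-5p the ratio was 0.627 and 0.595 in unmodified vesicles and 1.18, 0.904 and 1.22 in freeze-dried ones. The groups did not overlap, and the mean log2 ratio was higher by 0.84 in freeze-dried vesicles (exact permutation p = 0.2, adjusted over the 7 ratios 0.35). It was higher by 0.72 to 0.97 under the alternatives run. Ratios of let-7e-5p to other miRNAs of at least 1000 CPM were higher without overlap in 26.1% of 88 cases.

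let-7c-5p over miR-99a-5p, neighbours on chromosome 16, had ratios of 14.4 and 17.6 in unmodified vesicles and of 31.5, 31.3 and 38.6 in freeze-dried ones. The mean log2 ratio was higher by 1.08, without overlap (exact permutation p = 0.2, adjusted 0.35), and by 0.94 to 1.23 under the alternatives run. let-7c-5p, which also comes from a hairpin on chromosome 15, was higher without overlap against 45.5% of 88 miRNAs, so that this pattern was common for it. let-7a-5p over miR-100-5p, on chromosome 9, had ratios of 3.93 and 9.75 in unmodified vesicles and of 8.94, 5.99 and 25.1 in freeze-dried ones. These overlapped, with the higher ratio of each group in its shallow library (log2 difference 0.83, exact permutation p = 0.6, adjusted 0.70). That difference was 0.18 without unmodified replicate 1 and 0.24 without freeze-dried replicate 3.

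miR-99b-5p over miR-125a-5p, from the ends of the chromosome 17 cluster, had ratios of 1.04 and 1.78 in unmodified vesicles and of 0.767, 0.618 and 0.631 in freeze-dried ones. miR-99b-5p was thus the more abundant of this pair in both unmodified libraries and the less abundant in all 3 freeze-dried ones. The mean log2 ratio was lower by 1.02 (difference -1.02, exact permutation p = 0.2, adjusted 0.35). The difference was -0.64 without unmodified replicate 2 and -0.59 in the deep libraries alone. Ratios of miR-99b-5p to other miRNAs of at least 1000 CPM were lower without overlap in 42.0% of 88 cases.

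Of the counts of the 3 guides of this cluster, miR-99b-5p made up 38.6% and 46.3% in unmodified vesicles and 28.7%, 28.4% and 26.3% in freeze-dried ones. The share of let-7e-5p was 24.2% and 27.6% against 33.9%, 25.7% and 32.0%, with overlap. The share of miR-125a-5p was 37.2% and 26.1% against 37.4%, 45.9% and 41.7%, where unmodified replicate 1 was only just below freeze-dried replicate 1.

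**Figure D4:**
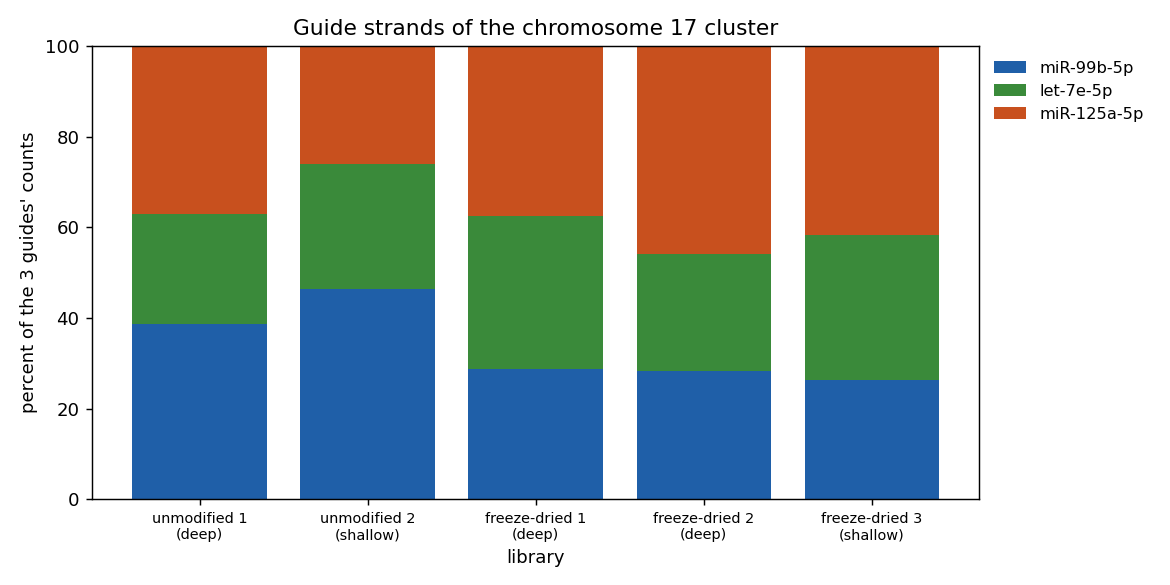
Share of the 3 guide strands of the chromosome 17 cluster in their summed counts, 1 stacked bar per library (percent). miR-99b-5p takes 38.6% and 46.3% in the unmodified libraries and 26.3% to 28.7% in the freeze-dried ones.

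The balance between the strands of the miR-125a hairpin varied between libraries. The ratio of miR-125a-5p to miR-125a-3p was 15.5 and 5.62 in unmodified vesicles and 28.5, 23.8 and 17.7 in freeze-dried ones. Every freeze-dried library was above both others, although unmodified replicate 1 and freeze-dried replicate 3 lay close together. The geometric mean ratio was 2.46 times as high in freeze-dried vesicles (exact permutation p = 0.2, adjusted 0.35). The difference in mean log2 ratio was 0.56 without unmodified replicate 2 and 2.03 without unmodified replicate 1. Among 71 hairpins with both strands tested, the 5p over 3p ratio was higher without overlap in 8.45% and lower in 8.45%.

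For miR-99b the 5p over 3p ratio was 20.5 and 19.3 in unmodified vesicles and 22.1, 12.6 and 21.8 in freeze-dried ones. Freeze-dried replicate 2 was the lowest and the others lay close together, with overlap (log2 difference -0.12, exact permutation p = 1, adjusted 1). That difference was 0.14 without freeze-dried replicate 2. For miR-125b the guide over the summed 3p strands had ratios of 12.2 and 10.9 in unmodified vesicles and of 14.7, 14.4 and 11.7 in freeze-dried ones. The ratio of miR-125b-1-3p to miR-125b-2-3p was 28.5, 40.2, 38.7 and 29.8 in 4 libraries and 402 in freeze-dried replicate 1. Its log2 difference between groups of 1.21 (exact permutation p = 0.4, adjusted 0.56) was 0.02 without that library.

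**Figure D5:**
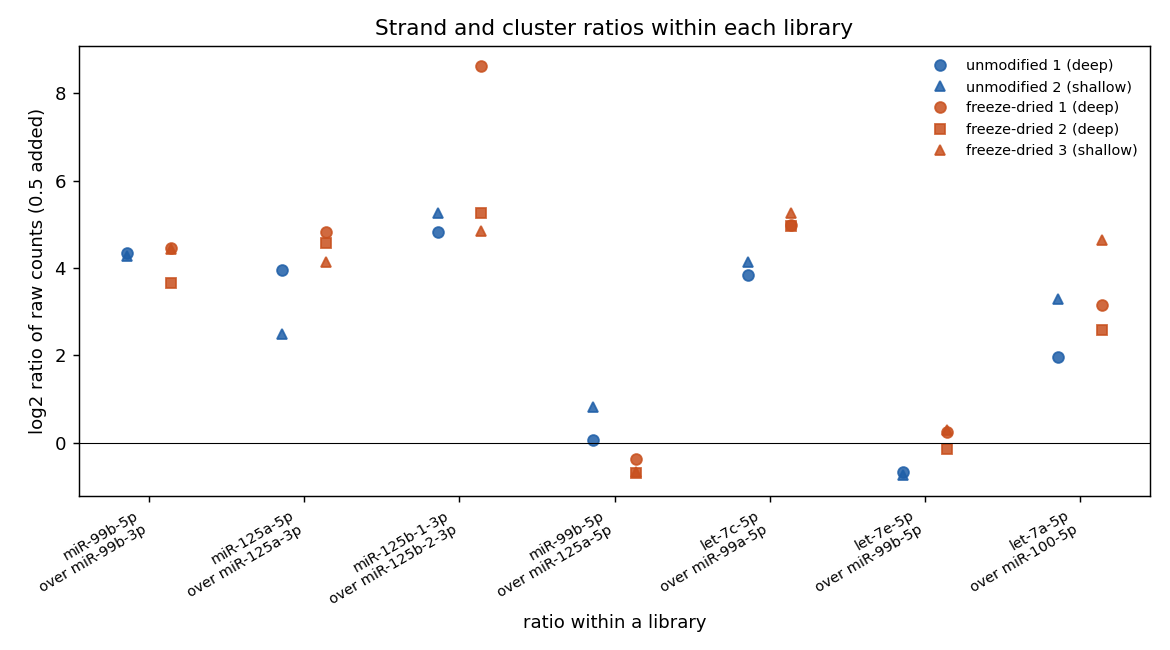
Log2 ratios of raw counts (0.5 added to each) within each library for the 7 ratios tested, in blue for unmodified and orange for freeze-dried vesicles. let-7e-5p over miR-99b-5p, let-7c-5p over miR-99a-5p and miR-125a-5p over miR-125a-3p are higher in each freeze-dried library, miR-99b-5p over miR-125a-5p is lower, and the other 3 overlap.

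The miRNAs with levels most like those of the leading members were sought among 81 others whose mean reached 1000 CPM and that had counts in all 5 libraries, by the root mean square difference of centred log2 CPM. For miR-125b-5p they were miR-27b-3p at 0.097, miR-30d-5p at 0.12 and miR-30a-5p at 0.12, against a median of 0.42 over the 81. These also had their lowest values in a shallow library. For miR-99b-5p they were miR-93-5p at 0.084, miR-24-3p at 0.12 and miR-16-5p at 0.14, against a median of 0.41, and each of these was lower in all 3 freeze-dried libraries. With 5 libraries, such likeness is a description of these samples.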

How the data were processed

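The authors deposited a single table of unnormalised read counts, with 1 row for each mature miRNA and 1 column for each of 5 libraries. Per the submitters' processing notes, the build was GRCm38 and the tools included featureCounts 1.5.0-p1, Bowtie 1.1.2, cutadapt 2.3, bcl2fastq 2.20 and FastQC, with no role or order. No source used here states the miRNA annotation, the use of strand or any removal of duplicates. The protocols in the labels give a size selection of 126 to 169 bp. Groups came from the sample titles.

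The quasi-likelihood test of edgeR 4.0.16 (R 4.3.3) was run with TMM factors and robust dispersion on the 327 miRNAs kept by filterByExpr, with Benjamini-Hochberg adjustment at 0.05. The SE was the log2 fold change divided by the square root of F. Ratios were compared with exact permutation tests in scipy 1.17.1. Alternatives were other normalizations and filters, DESeq2 1.42.0, limma-voom (limma 3.58.1), thinning to 131507 counts, leaving out each library, deep libraries alone, depth class as a term and a replicate block. The functions were tested on simulated counts. The miRNAs named are all members, their let-7 partners, rows with the same seed, miR-10a-5p and miR-10b-5p, and the 3 miRNAs most like the leading guide of each family. let-7a-1-3p and let-7c-2-3p, and the guide over summed 3p ratio of miR-125b, were added after values were seen. Members, lists and alternatives were chosen with earlier results of these data known.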

Additional observations from a re-analysis of the deposited data

How the results depend on the processing

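Over the 16 alternatives 0 miRNAs were called higher in freeze-dried vesicles, and 0 members were called in either direction. With the 3 deep libraries 1 miRNA was called lower and with the replicate block 4 were, none of them a member. The log2 fold changes of miR-125a-5p, miR-99b-5p, miR-99a-5p, miR-125a-3p and miR-125b-2-3p kept their sign under every alternative run, while that of miR-125b-2-3p ranged from -2.11 with limma-voom to -0.10 after thinning. That of miR-125b-5p turned to -0.025 with the total count only, to -0.012 with the 3 deep libraries, and lay between -0.17 and 0.46 when single libraries were left out. Without 1 library, miR-100-5p ranged from -1.06 to 0.41, miR-125b-1-3p from -0.31 to 0.15, and the log2 difference of the miR-99b strand ratio from -0.26 to 0.14. miR-99b-3p had 0.032 in the deep libraries. The causes were not tested. The replicate numbers give only 2 pairs, whose deviations from the group mean correlated at 0.14 and -0.11. With 2 unmodified libraries these deviations mirror each other, so the values cannot decide whether equal numbers mark a shared origin. With the replicate block miR-100-5p had a log2 fold change of -0.0041 and miR-125b-2-3p one of -1.92. Leaving out a unmodified library, or using the deep ones alone, sets 1 library against the others and assumes that it varies as they do. A ratio of the miR-99a strands was not run, as the 3p strand had 0 counts, and miR-125b-2-3p had no value with a minimum of 100 CPM. Depth limits miR-125b-2-3p, which had 9 to 212 counts per library.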
